A study of Mus musculus with 6 samples.

Results

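The genes that encode the fibrillar collagens of the heart, and the proteins that mature them, were examined in the left ventricles (LVs) of mice with and without a mutation of *Lztr1*, which encodes an adaptor of a ubiquitin ligase that acts on RAS proteins. The set was chosen by name and held 10 genes of the 56923 listed: the chains *Col1a1*, *Col1a2*, *Col3a1*, *Col5a1*, and *Col5a2*, the lysyl oxidases *Lox*, *Loxl1*, and *Loxl2*, the prolyl hydroxylase subunit *P4ha1*, and the collagen chaperone *Serpinh1*. All 10 were among the 17212 genes with enough counts to be tested. The samples are labeled heart, with the genotype wild-type (WT, n = 3) or mutant (Mut, n = 3), and all mice were 12 weeks of age. By the study's methods, the Mut mice were heterozygous for the missense knock-in R409C in *Lztr1*, which was made with CRISPR/Cas9 and is present in every cell, and both groups were male mice on a C57BL/6J background whose hearts were perfused with PBS before the LVs were taken. Since the change is a missense change, the level of *Lztr1* is no check of the genotype, and its log2 fold change of Mut over WT was 0.13 (SE 0.15, adjusted p = 0.854). This value lay between 0.058 and 0.17 when each mouse was left out in turn. The labels call each sample a replicate without naming the animal, so p-values measure the spread between these samples.

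Fibrillar collagens are rope-like proteins that give the heart wall its tensile strength, and in the LV they are made mainly by cardiac fibroblasts. Type I collagen is assembled from chains encoded by *Col1a1* and *Col1a2*, type III from the chain of *Col3a1* alone, and type V, which is built into type I fibrils and limits their width, from the chains of *Col5a1* and *Col5a2*. In the endoplasmic reticulum, prolyl 4-hydroxylases modify the chains so that the triple helix is stable at body temperature, and HSP47, encoded by *Serpinh1*, binds the folded helix. Outside the cell, lysyl oxidases start the cross-links that make fibrils strong and insoluble.

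Promoter stretches of 3 chains are shown because these chains varied together from mouse to mouse, as described after them. The RefSeq table used here (build GRCm38.p6) held the 250 bases before the start site for 5 of the 10 genes, *Col3a1*, *Col5a1*, *Col1a2*, *Serpinh1*, and *P4ha1*, and each window was found exactly once in GRCm39, whose coordinates are given. Bases within an annotated exon were left out, and capitals mark the matches to the motifs searched. The stretches lie on the plus strand at chr1:45350448-45350697 for *Col3a1*, chr2:27776187-27776396 for *Col5a1*, and chr6:4505370-4505492 for *Col1a2*.
Col3a1: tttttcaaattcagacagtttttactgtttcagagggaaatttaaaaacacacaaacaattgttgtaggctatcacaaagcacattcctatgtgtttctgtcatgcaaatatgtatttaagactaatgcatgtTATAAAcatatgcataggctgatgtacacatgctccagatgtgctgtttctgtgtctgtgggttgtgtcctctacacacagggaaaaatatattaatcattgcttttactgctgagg
Col5a1: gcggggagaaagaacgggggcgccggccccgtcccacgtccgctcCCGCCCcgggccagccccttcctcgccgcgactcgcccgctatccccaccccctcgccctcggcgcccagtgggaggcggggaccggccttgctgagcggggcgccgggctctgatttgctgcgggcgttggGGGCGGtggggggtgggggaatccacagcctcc
Col1a2: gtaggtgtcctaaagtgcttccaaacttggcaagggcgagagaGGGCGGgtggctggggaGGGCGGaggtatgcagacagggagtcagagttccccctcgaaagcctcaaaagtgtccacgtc

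The motifs searched on both strands were TATAAA, the GC box GGGCGG, and the CCAAT box. TATAAA was present in the window of *Col3a1*, at 117 bases before the start, and in 12.4% of 32851 windows of the same length. GGGCGG was present in the windows of *Col5a1* and *Col1a2*, with 2 matches each, in those of *P4ha1* and *Serpinh1*, and in 32.7% of all windows. CCAAT was present in the window of *Col1a2*, within the exonic bases left out, and in 33.8% of all windows. The GC content was 35.2% in the *Col3a1* window, against 76.4% for *Col5a1* and 62.0% for *Col1a2*, so no motif was common to the 3 windows, and their base composition differed.

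The libraries held between 66130887 and 72641124 counts each, and 3 counts corresponded to between 0.0317 and 0.0541 CPM, which are counts scaled to a common library total, here with edgeR's TMM factors between mice. The lowest count of any of the 10 genes was 244, for *Lox* in WT replicate 1. Values of each group are given in the order of replicates 1, 2, and 3. Mitochondrially encoded genes took between 13.8% and 45.4% of a library's counts. The lowest share was that of WT replicate 3 and the highest that of Mut replicate 1, and the other 4 mice lay between 29.7% and 37.3%. Results that rest on these 2 mice are given with and without them. Across all genes, edgeR's quasi-likelihood test called 6 higher (0.0349%) and 1 lower (0.00581%) in Mut mice at an adjusted p under 0.05.

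None of the 10 collagen and maturation genes passed that threshold, beside a background of 0.0407% of genes called in either direction. DESeq2 called 136 of 17212 genes higher and 14 lower, and edgeR's exact test 124 and 13. None of the 10 was among the genes called by either test. At an unadjusted p under 0.05, 0 were higher, where 5.77% of all genes were, and 1 was lower, *P4ha1*, where 2.86% of all genes were. Of the 10, 6 had a log2 fold change above 0, beside 51.4% of all genes tested, and the median over the 10 was 0.063, beside 0.012 over all genes. Scaling by library size alone moved the median of all genes by -0.16 and left 4 of the 10 above 0. When each mouse was left out in turn, between 4 and 9 of the 10 were above 0, and their median lay between -0.15, without Mut replicate 2, and 0.30, without Mut replicate 1 or WT replicate 3. In bulk LV tissue, fewer cells of a type and less RNA per cell cannot be told apart, which holds for every level given here.

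**Figure D1:**
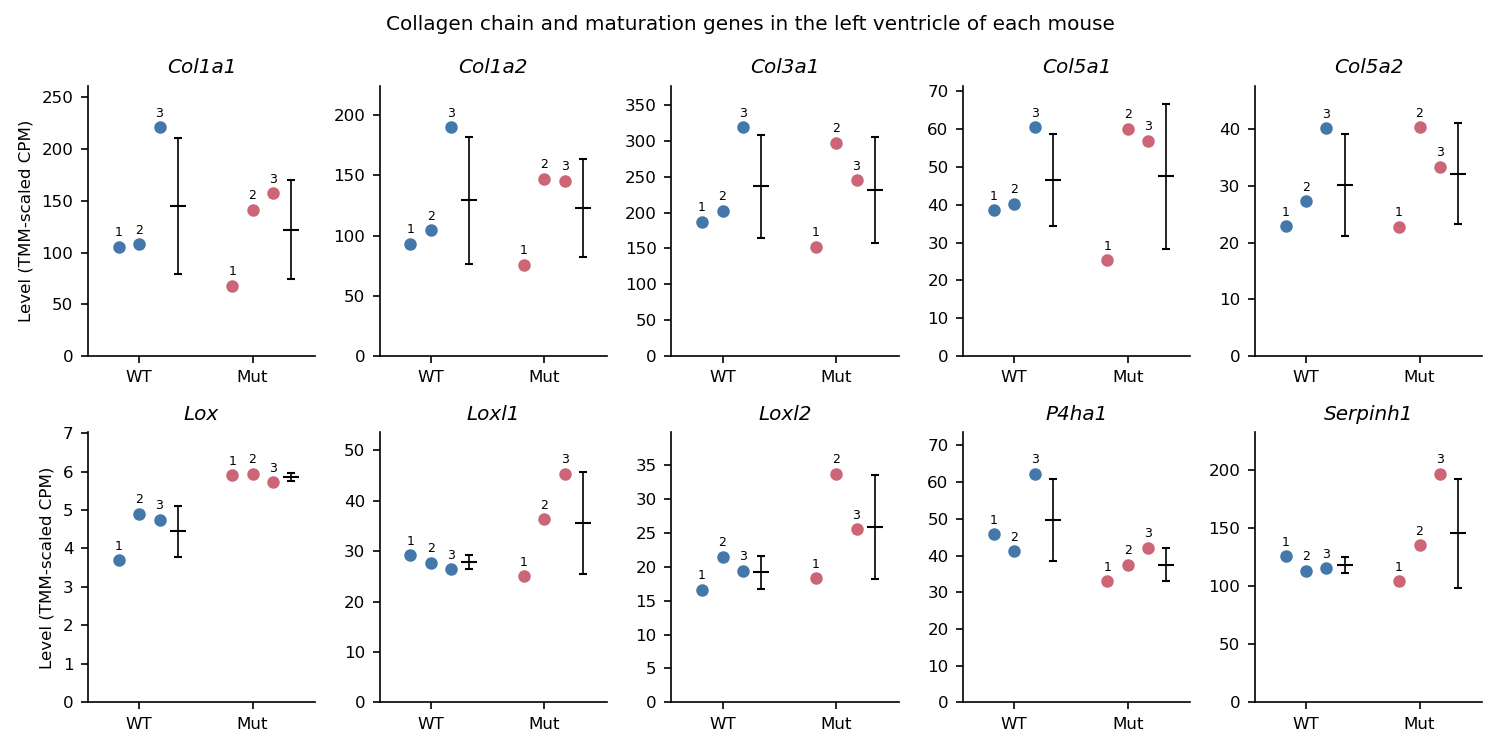
TMM-scaled CPM of each collagen and maturation gene (vertical axes, from 0) in each mouse, numbered by replicate, with WT mice in blue, Mut mice in red, and the mean and SD of each group (n = 3) as black bars. In the upper row, the chains were highest or nearly highest in WT replicate 3 and lowest in Mut replicate 1, and in the lower row, *Lox* was the only gene whose groups did not overlap.

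Among the fibrillar chains, *Col1a1* (chromosome 11, 94827050 to 94843868 in GRCm39) had levels of 106, 108, and 221 CPM in the WT mice, and of 67.9, 142, and 157 CPM in the Mut mice. WT replicate 3 was the highest mouse and Mut replicate 1 the lowest, with a 3.26-fold range, and the groups overlapped. Its log2 fold change was -0.25 (SE 0.36, adjusted p = 0.891), less than the spread between replicates. *Col1a2* (chromosome 6, 4504814 to 4541555), the partner chain of type I collagen, was at 93.1, 104, and 190 CPM in WT mice and at 75.6, 147, and 145 CPM in Mut mice. The same mice were at the ends of its range, and its log2 fold change was -0.07 (SE 0.30, adjusted p = 0.967).

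*Col3a1* (chromosome 1, 45350698 to 45395840), which encodes the chain of type III collagen, was at 187, 203, and 319 CPM in WT mice and at 152, 297, and 245 CPM in Mut mice. Again WT replicate 3 was highest and Mut replicate 1 lowest, and the other Mut mice lay within the WT range. Its log2 fold change was -0.03 (SE 0.26, adjusted p = 0.983). *Col5a1* (chromosome 2, 27776397 to 27929526), the major chain of type V collagen, was at 38.6, 40.3, and 60.6 CPM in WT mice and at 25.4, 60.2, and 57.0 CPM in Mut mice. Its groups overlapped, with WT replicate 3 and Mut replicate 2 nearly level at the top, and the log2 fold change was 0.03 (SE 0.30, adjusted p = 0.984). *Col5a2* (chromosome 1, 45412554 to 45542442), which encodes the other type V chain, was at 22.9, 27.4, and 40.2 CPM in WT mice and at 22.8, 40.4, and 33.4 CPM in Mut mice. This chain had the narrowest range of the 5, 1.77-fold, and its log2 fold change was 0.09 (SE 0.24, adjusted p = 0.944). Scaled by library size alone, the log2 fold changes of *Col5a1* and *Col5a2* were -0.14 and -0.10.

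The 5 chains varied together from mouse to mouse. Over the 6 mice, the Pearson correlation of log2 CPM between 2 chains was between 0.86 and 0.98 in the 10 pairs, the highest being that of *Col1a1* with *Col1a2*. Between a chain and an enzyme or the chaperone, the correlation was between -0.066 and 0.80 in 25 pairs, with *P4ha1* the closest to *Col1a1* and *Lox* the least close. These values are a description of 6 mice that share 2 genotypes and the scaling of their libraries. WT replicate 3, which had the lowest mitochondrial share, was the highest mouse in 4 of the 5 chains, and Mut replicate 1, which had the highest share, was the lowest in all 5. The part of the mitochondrial share in these levels was not tested. Removing the mitochondrially encoded genes before normalization left the log2 fold changes of *Col1a1* and *Col3a1* at -0.25 and -0.03. That refit tested 17157 genes, beside 17212 in the main fit, under the same TMM scaling. It could therefore differ little and does not test the part of the share.

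**Figure D2:**
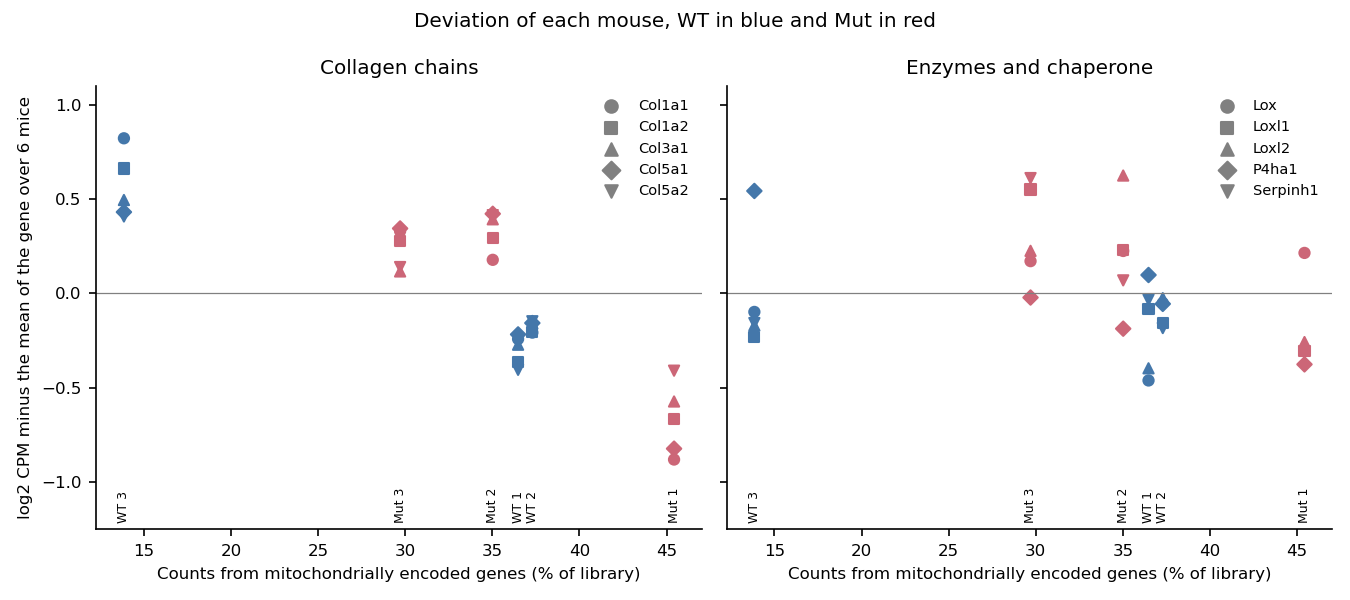
Log2 CPM of each gene in each mouse minus that gene's mean over the 6 mice (vertical axis), against the percentage of the library's counts from mitochondrially encoded genes (horizontal axis), with WT mice in blue and Mut mice in red and a symbol for each gene. The left panel shows the 5 chains, which lie together in each mouse, lowest at 45.4% and highest at 13.8% except for *Col5a2*, which was marginally higher in Mut replicate 2, and the right panel shows the enzymes and the chaperone, which lie further apart within a mouse.

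The direction of *Col1a1*, *Col1a2*, and *Col3a1* depended on these 2 mice. Without WT replicate 3, the log2 fold change of *Col1a1* was 0.19, that of *Col1a2* 0.31, and that of *Col3a1* 0.25. Without Mut replicate 1, the values were 0.03, 0.17, and 0.19, in the same order. With both mice left out, a choice made after the data were seen, *Col1a1* was at 0.48 (SE 0.13, adjusted p = 0.382), *Col1a2* at 0.57 (SE 0.13, adjusted p = 0.356), and *Col3a1* at 0.48 (SE 0.14, adjusted p = 0.413). *Col5a1* was then at 0.57 and *Col5a2* at 0.55, and 9 of the 10 genes were above 0, beside 50.9% of all genes, with a median over the 10 of 0.50. In all 6 mice, *Col5a1* and *Col5a2* were close to 0, and their sign turned on other mice. *Col5a1* was at -0.09 without WT replicate 1, -0.07 without WT replicate 2, -0.18 without Mut replicate 2, and -0.12 without Mut replicate 3, and *Col5a2* was at -0.07 without WT replicate 1 and -0.11 without Mut replicate 2. The 2 mice left out together were also the highest WT mouse and the lowest Mut mouse for most chains, so their omission raises the difference by construction, and no gene of the set passed the threshold in the 4 mice that remained.

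**Figure D3:**
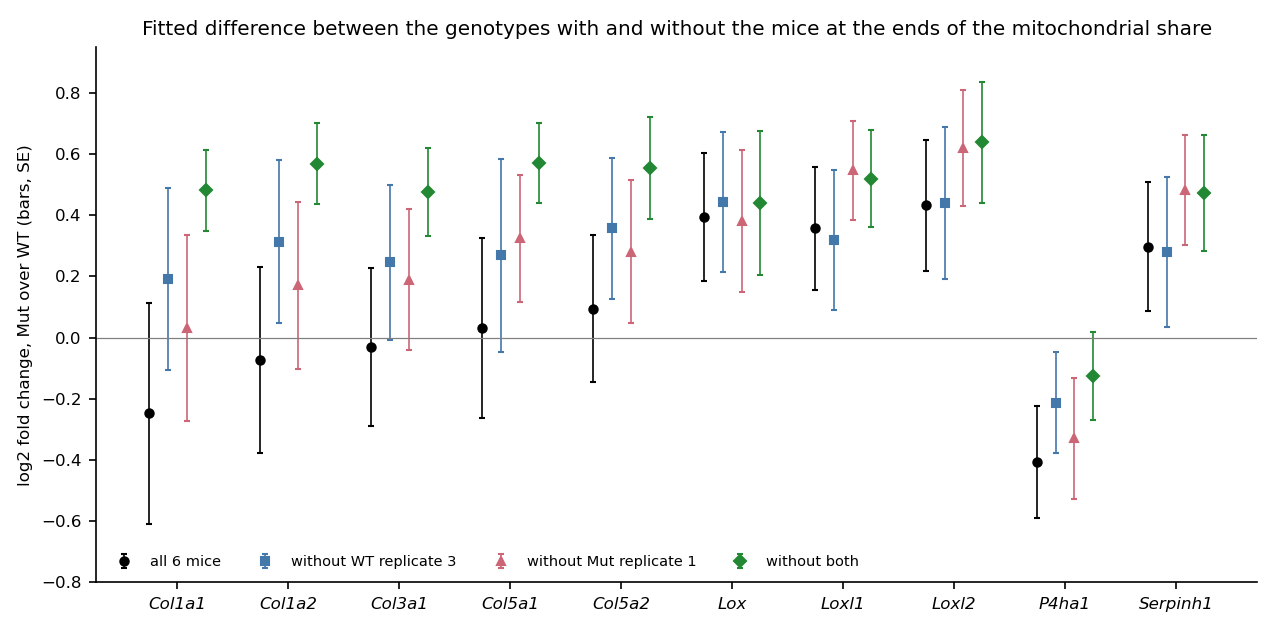
Log2 fold change of Mut over WT mice for each gene (vertical axis), with bars for the SE of edgeR's quasi-likelihood fit, in all 6 mice (black), without WT replicate 3 (blue), without Mut replicate 1 (red), and without both (green). The chains moved from between -0.25 and 0.09 in all mice to between 0.48 and 0.57 without both, whereas *Lox* stayed between 0.38 and 0.44 and *P4ha1* below 0 in the 4 fits drawn.

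Before the chains leave the cell they are hydroxylated and folded. *P4ha1* (chromosome 10, 59159092 to 59209126), which encodes a catalytic subunit of prolyl 4-hydroxylase, was at 45.7, 41.1, and 62.3 CPM in WT mice and at 32.9, 37.6, and 42.1 CPM in Mut mice. The groups overlapped only through Mut replicate 3, which lay above WT replicate 2. *P4ha1* had a log2 fold change of -0.41 (SE 0.18, unadjusted p = 0.0464, adjusted p = 0.569), which lay between -0.53 and -0.21 when each mouse was left out in turn. It was -0.21 (edgeR, unadjusted p = 0.226) without WT replicate 3 and -0.13 (unadjusted p = 0.407) without WT replicate 3 and Mut replicate 1. *Serpinh1* (chromosome 7, 98994220 to 99005076) was at 126, 113, and 116 CPM in WT mice and at 104, 135, and 197 CPM in Mut mice. The WT mice were within 1.11-fold of each other and the Mut mice lay on both sides of them, with Mut replicate 3 the highest. The log2 fold change was 0.30 (SE 0.21, adjusted p = 0.740), and it was 0.02 without Mut replicate 3, 0.48 without Mut replicate 1, and 0.47 without WT replicate 3 and Mut replicate 1, with adjusted p of 0.991, 0.588, and 0.555.

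The lysyl oxidases, which act on the secreted fibrils, had log2 fold changes above 0 in every alternative run, and none passed the test. *Lox* (chromosome 18, 52649136 to 52663110), the founding enzyme of the family, was at 3.69, 4.91, and 4.75 CPM in WT mice and at 5.90, 5.94, and 5.73 CPM in Mut mice. Every Mut mouse was above every WT mouse, and *Lox* was the only gene of the set without overlap, beside 8.3% of all genes tested that did not overlap and were higher in Mut mice. Its log2 fold change was 0.40 (SE 0.21, unadjusted p = 0.0833, adjusted p = 0.632), and the exact permutation test of 3 mice against 3 gave p = 0.1, the smallest it allows. The Mut mice were within 1.04-fold of each other for *Lox*, in contrast to the 2.32-fold range of *Col1a1* in the same mice. At 327, 425, and 415 counts of *Lox* in these mice, that spread is no wider than counting error alone would give. Its narrowness is therefore not read as a trait of *Lox*.

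*Loxl1* (chromosome 9, 58195014 to 58220495), best known for its role in elastic fibers, was at 29.2, 27.7, and 26.4 CPM in WT mice and at 25.0, 36.3, and 45.4 CPM in Mut mice. Mut replicate 1 lay below all WT mice and the other Mut mice above them. The log2 fold change was 0.36 (SE 0.20, adjusted p = 0.657), and it was 0.14 without Mut replicate 3, 0.55 without Mut replicate 1, and 0.52 without WT replicate 3 and Mut replicate 1, with adjusted p of 0.898, 0.470, and 0.414. *Loxl2* (chromosome 14, 69846209 to 69933283), an enzyme that cross-links collagen IV of basement membranes as well as fibrils, was at 16.6, 21.5, and 19.4 CPM in WT mice and at 18.3, 33.7, and 25.6 CPM in Mut mice. Here Mut replicate 1 lay within the WT range and the other Mut mice above it. The log2 fold change was 0.43 (SE 0.21, adjusted p = 0.602), and it was 0.19 without Mut replicate 2. *Loxl2* overlaps *R3hcc1* and the long noncoding gene *Gm27177* on the opposite strand, whose counts came to up to 45.8% and 23.1% of its own, and whether counting used the strand is not given in the sources used here, so its level is uncertain to that extent.

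Ratios between genes of the same mouse are free of the scaling between libraries, and 9 of them were compared with an exact permutation test whose p-values were adjusted over the 9. The log2 ratio of *Col1a1* to *Col1a2*, the chains of type I collagen, was 0.18, 0.06, and 0.22 in WT mice and -0.16, -0.06, and 0.11 in Mut mice. The difference of Mut minus WT was -0.19 (exact p = 0.2, adjusted p = 0.514), and the groups overlapped through Mut replicate 3 and WT replicate 2. The ratio thus stayed between -0.16 and 0.22 on the log2 scale, whereas *Col1a1* itself had a 3.26-fold range and *Col1a2* a 2.51-fold range. The log2 ratio of *Col3a1* to *Col1a1* was 0.75 ± 0.20 in WT mice and 0.96 ± 0.28 in Mut mice (SD, n = 3), a difference of 0.21 (exact p = 0.4, adjusted p = 0.514) that was -0.0087 without WT replicate 3 and Mut replicate 1. That of *Col5a1* to *Col1a1* differed by 0.21 (exact p = 0.4), and that of *Col5a1* to *Col5a2* by -0.13 (exact p = 0.8), and these differences were 0.09 and 0.02 without the same 2 mice. Leaving out each mouse in turn gave 0.094 to 0.36 for *Col3a1* to *Col1a1* and 0.068 to 0.29 for *Col5a1* to *Col1a1*.

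Relative to *Col1a1*, each lysyl oxidase and *Serpinh1* was lowest in WT replicate 3, and each was highest in Mut replicate 1. The log2 ratio of *Lox* to *Col1a1* was -4.84, -4.46, and -5.54 in WT mice and -3.52, -4.57, and -4.78 in Mut mice. The difference was 0.66 (exact p = 0.4, adjusted p = 0.514) and -0.03 without WT replicate 3 and Mut replicate 1, so it rested on these mice. For *Loxl1* the difference was 0.56 (exact p = 0.2), for *Loxl2* 0.64 (exact p = 0.2), for *Serpinh1* 0.50 (exact p = 0.4), and for *P4ha1* -0.14 (exact p = 0.8), and without these 2 mice the differences were 0.03, 0.16, -0.03, and -0.60, in the same order. Without WT replicate 3 alone, the difference was 0.18 for *Loxl1*, 0.31 for *Loxl2*, and 0.13 for *Serpinh1*. All 9 ratios overlapped between the groups, and none had an adjusted p under 0.514.

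**Figure D4:**
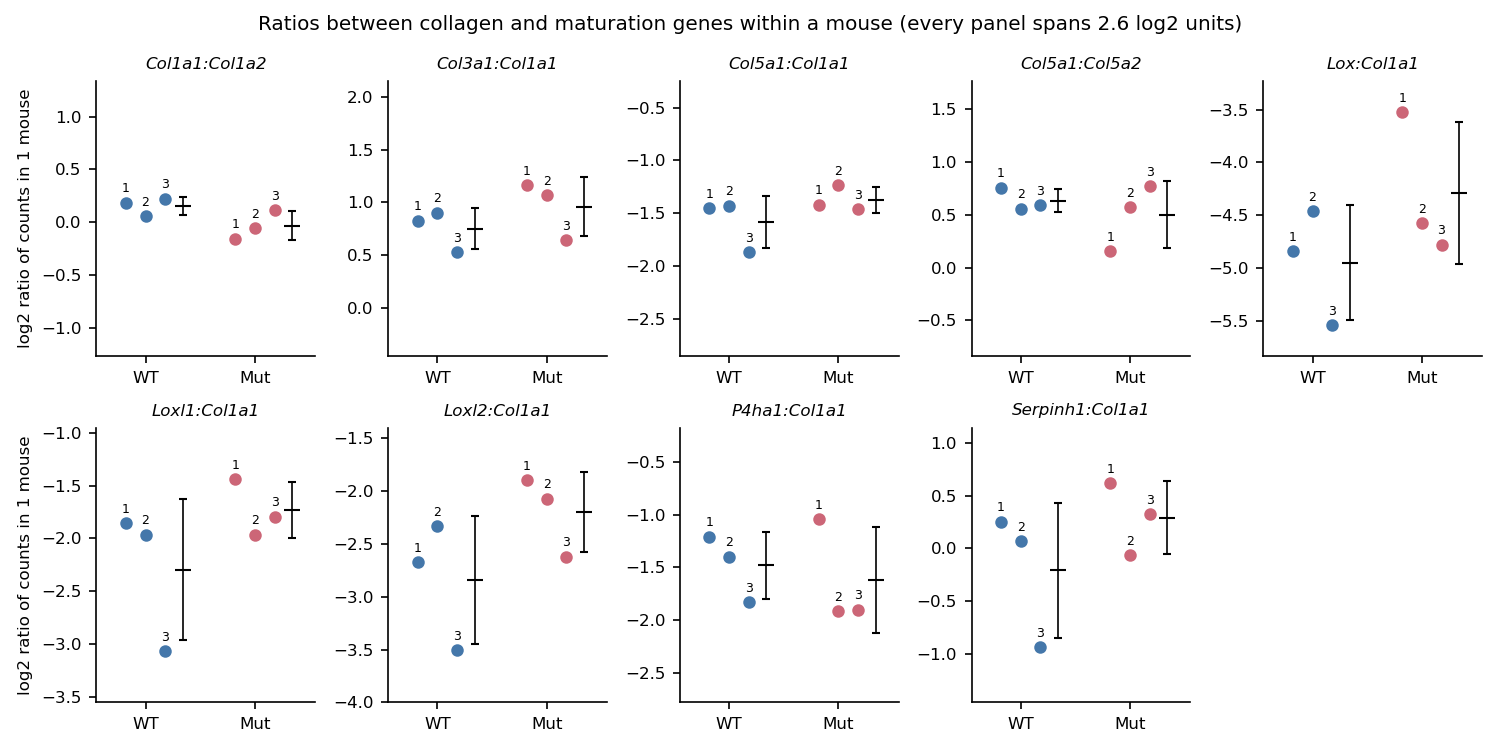
Log2 ratio of the counts of 2 genes in the same mouse (vertical axes, each spanning the same range), numbered by replicate, with WT mice in blue, Mut mice in red, and the mean and SD of each group (n = 3) as black bars. The ratio of *Col1a1* to *Col1a2* stayed between -0.16 and 0.22 in all mice, whereas *Loxl1* and *Serpinh1* relative to *Col1a1* were set apart in WT replicate 3.

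Levels of different genes were compared as CPM per kilobase of the canonical transcript. In WT mice, *Col3a1* was at 42.5 ± 12.9, *Serpinh1* at 42.1 ± 2.38, *Col1a1* at 24.5 ± 11.1, *Col1a2* at 24.1 ± 9.89, and *P4ha1* at 16.5 ± 3.69 CPM per kb (SD, n = 3). *Loxl1* followed at 8.34 ± 0.42, *Col5a1* at 5.50 ± 1.45, *Col5a2* at 3.99 ± 1.19, *Loxl2* at 3.61 ± 0.46, and *Lox* at 0.93 ± 0.14 CPM per kb. Per length, *Lox* was thus the lowest of the set, and type III collagen and the chaperone were the highest, although over the union of all annotated exons *Serpinh1*, at 16.9, lay below *Col1a1*, at 22.1. In Mut mice, *Serpinh1* was at 51.8 ± 16.8, *Col3a1* at 41.6 ± 13.2, *Col1a2* at 22.9 ± 7.61, *Col1a1* at 20.6 ± 8.04, *P4ha1* at 12.4 ± 1.52, and *Loxl1* at 10.7 ± 3.06 CPM per kb. *Col5a1* followed at 5.63 ± 2.28, *Loxl2* at 4.86 ± 1.45, *Col5a2* at 4.26 ± 1.17, and *Lox* at 1.23 ± 0.02 CPM per kb.

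Neighbors in this order did not all differ beyond their spread. *Col3a1* was above *Serpinh1* in 2 of 6 mice, *Col1a1* above *Col1a2* in 2 of 6, and *Col5a2* above *Loxl2* in 1 of 6, and the ranges of these pairs overlapped in both groups. *Serpinh1* was above *Col1a1*, *Loxl1* above *Col5a1*, and *Loxl2* above *Lox* in 6 of 6 mice without overlap in either group. Over the union of exons this no longer held for *Serpinh1* and *Loxl1*, since *Serpinh1* lay below *Col1a1* in WT replicates 2 and 3 and *Loxl1*, at 6.67, lay below *Col5a1*, at 6.94, in WT replicate 3. Per kb, *Col1a1* was at between 0.81 and 1.05 times *Col1a2*, and *Col3a1* at between 1.54 and 2.39 times *Col1a1*. These ratios depend on the length used, since over the union of all annotated exons, which is longer for *Col1a2*, *Col1a1* was at between 1.73 and 2.24 times *Col1a2*, and *Col3a1* at between 0.92 and 1.43 times *Col1a1*.

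The other genes of collagen production were described by lists. Of the other fibrillar chains, *Col2a1*, *Col11a1*, and *Col24a1*, which belong mainly to cartilage and bone, were too low to be tested. *Col27a1* was at between 2.59 and 4.79 CPM in all mice and *Col11a2* at between 0.66 and 1.70 CPM, with log2 fold changes of 0.18 (SE 0.27, adjusted p = 0.892) and -0.19 (SE 0.38, adjusted p = 0.925). Leaving out each mouse in turn gave 0.0068 to 0.48 for *Col27a1* and -0.54 to 0.10 for *Col11a2*. The median of these 2 was -0.004, or -0.23 when scaled by library size alone. It lay between -0.17 and 0.18 when each mouse was left out in turn.

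Genes of procollagen modification and folding had a median log2 fold change of 0.044 over 17 tested of 18, which was -0.11 when scaled by library size alone and -0.035 with the length correction. It was -0.05 without Mut replicate 3 and 0.10 without Mut replicate 1. Of the 17, 10 were above 0, 2 had an unadjusted p under 0.05 with a higher level, and none with a lower one, beside 51.4%, 5.77%, and 2.86% of all genes. *Fkbp10*, a prolyl isomerase whose loss causes brittle bones, was at 12.6, 11.1, and 8.96 CPM in WT mice and at 12.6, 18.0, and 17.4 CPM in Mut mice, and its log2 fold change was 0.55 (SE 0.20, adjusted p = 0.470). *Ppib*, the cyclophilin of the prolyl 3-hydroxylation complex, was at 28.9, 27.0, and 16.3 CPM in WT mice and at 33.4, 29.0, and 37.7 CPM in Mut mice. Its groups did not overlap, with a log2 fold change of 0.47 (SE 0.21, adjusted p = 0.568) that was 0.25 without WT replicate 3. Of the 17, 1 was higher without overlap and 2 were lower, beside 8.3% and 7.23% of all genes. The lower ones were *P4ha2* (log2 fold change -0.36, SE 0.18, adjusted p = 0.605) and *P3h2* (-0.44, SE 0.25, adjusted p = 0.663). *P4ha2* was at 29.0, 29.0, and 42.7 CPM in WT mice and at 24.4, 26.8, and 27.2 CPM in Mut mice.

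Genes of procollagen export had a median log2 fold change of -0.18, with 1 of 8 above 0, beside 51.4% of all genes, and 1 lower at an unadjusted p under 0.05, beside 2.86% of all genes, and the median was -0.36 when scaled by library size alone. *Mia3*, which encodes TANGO1, the receptor that loads bulky procollagen into carriers, was at 67.6, 68.0, and 65.5 CPM in WT mice and at 46.6, 58.6, and 52.6 CPM in Mut mice. All Mut mice were below all WT mice, beside 7.23% of all genes that did not overlap in this direction, and the log2 fold change was -0.35 (SE 0.15, adjusted p = 0.554). *Sec23a*, a coat protein of these carriers, had no overlap either, at 61.0, 61.3, and 63.1 CPM in WT mice and at 48.9, 57.2, and 45.9 CPM in Mut mice (log2 fold change -0.29, SE 0.15, adjusted p = 0.625).

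Genes of propeptide processing had a median log2 fold change of 0.28, with 5 of 9 above 0, beside 51.4% of all genes, and none at an unadjusted p under 0.05, beside 5.77% higher and 2.86% lower, and the median was 0.02 without Mut replicate 3. *Bmp1*, the C-proteinase that trims procollagen and also activates lysyl oxidase, was at 24.5, 21.5, and 24.4 CPM in WT mice and at 26.8, 27.9, and 35.5 CPM in Mut mice. Its groups did not overlap, with a log2 fold change of 0.36 (SE 0.16, unadjusted p = 0.0502, adjusted p = 0.578) that was 0.22 without Mut replicate 3. *Adamts2*, the N-proteinase, was at 0.32 (SE 0.20, adjusted p = 0.692), and at 0.21 to 0.51 when each mouse was left out in turn. The other cross-linking enzymes had a median of 0.23, with 3 of 3 above 0, beside 51.4% of all genes, and the median was 0.10 without Mut replicate 3. Among them, the log2 fold change of *Tgm2*, a transglutaminase, was 0.22 (SE 0.18, adjusted p = 0.776) and that of *Loxl3* was 0.23 (SE 0.25, adjusted p = 0.833), and without Mut replicate 3 they were 0.10 and 0.02.

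Genes of fibril-associated partners had a median of 0.32, and of 0.13 to 0.52 when each mouse was left out in turn, the lowest being without Mut replicate 2, with 12 of 15 above 0 and 5 at an unadjusted p under 0.05 with a higher level, beside 51.4% and 5.77% of all genes. *Lum*, which encodes a proteoglycan that regulates fibril width, was at 44.4, 48.3, and 42.0 CPM in WT mice and at 76.7, 74.8, and 54.0 CPM in Mut mice. Every Mut mouse was higher, and the log2 fold change was 0.61 (SE 0.17, adjusted p = 0.305). *Fmod*, a related proteoglycan, had 14, 0, and 11 counts in WT mice and 42, 75, and 172 counts in Mut mice, with a log2 fold change of 3.64 (SE 0.80, adjusted p = 0.215). At 2.37 CPM in its highest mouse it remained a low gene, and it was called by DESeq2 (adjusted p = 0.0002), by edgeR's exact test (adjusted p = 0.0021), and by the quasi-likelihood test scaled by library size alone (adjusted p = 8.6e-05). Among all 17212 genes tested, these alternatives called 136, 124, and 15 higher, in the same order.

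Genes of collagen receptors and turnover had a median of 0.20 over 12 tested of 13. Of the 12, 9 were above 0 and 3 were higher at an unadjusted p under 0.05, beside 51.4% and 5.77% of all genes. The median was 0.01 when scaled by library size alone, 0.08 without WT replicate 1, and 0.36 without WT replicate 3. *Mmp13*, a collagenase, was at 0.73, 1.12, and 0.99 CPM in WT mice and at 1.41, 2.52, and 1.43 CPM in Mut mice, without overlap, and its log2 fold change was 0.92 (SE 0.36, adjusted p = 0.523), or 0.58 without Mut replicate 2. *Mmp2*, a gelatinase, was at 42.8, 46.5, and 40.2 CPM in WT mice and at 39.5, 71.5, and 70.3 CPM in Mut mice (log2 fold change 0.49, SE 0.21, adjusted p = 0.558). Mut replicate 1 lay below the WT mice for *Mmp2*, as it did for the chains and for *Loxl1*. No gene of the 7 related lists was called at an adjusted p under 0.05 by the quasi-likelihood test.

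**Figure D5:**
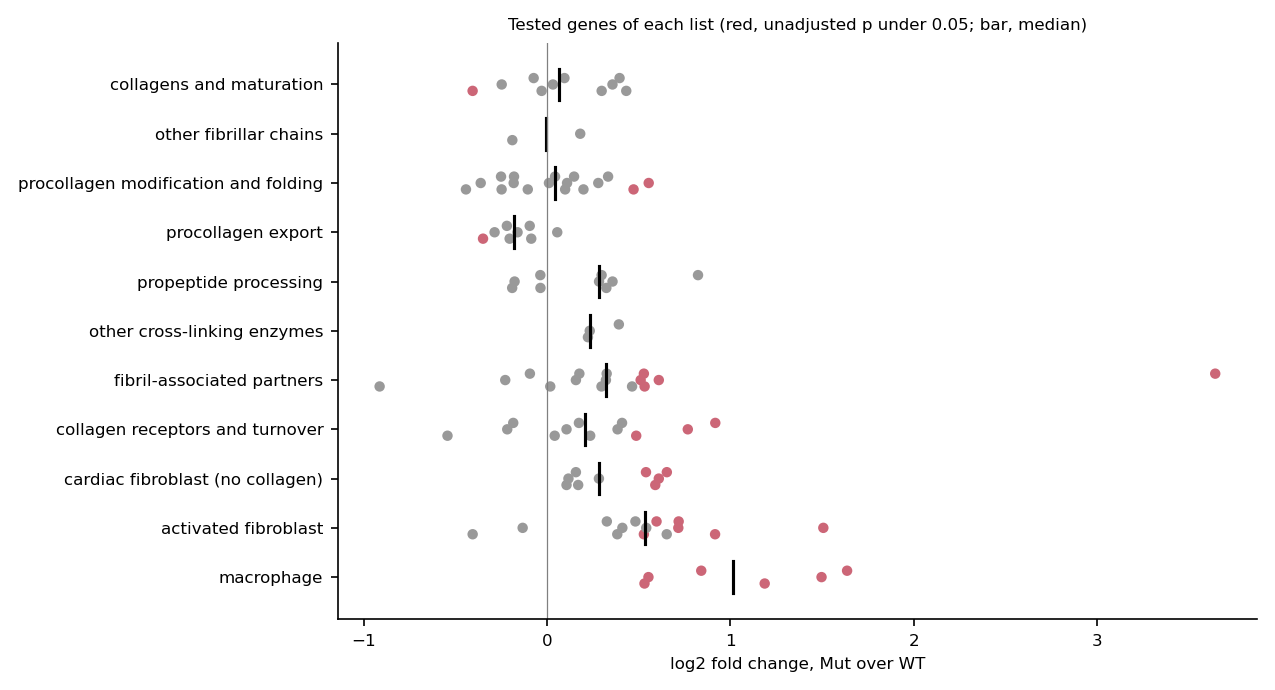
Log2 fold change of Mut over WT mice (horizontal axis) of every tested gene of each list (rows, with points offset for legibility), red where the unadjusted p was under 0.05, and a black bar at the median of the list. The collagen and maturation genes lay around 0 with a median of 0.063, whereas the macrophage markers lay above 0 in all 6 cases with a median of 1.01.

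Markers of the cells that the LV samples hold were set beside these values. The lists share genes, so their counts are not independent of each other. *Dcn*, *Lum*, *Postn*, and *Fmod* are also fibril-associated partners, *Ddr2* is also a collagen receptor, and *Comp* and *Acta2* recur among the marker lists. Of 9 cardiac fibroblast markers other than collagens, 9 were above 0 with a median log2 fold change of 0.28, 4 were higher at an unadjusted p under 0.05, and the same number were higher without overlap, beside 5.77% and 8.3% of all genes. Their summed level was between 600 and 656 CPM in WT mice and between 715 and 768 CPM in Mut mice. *Dpt*, a matrix protein of resting fibroblasts, was at 40.5, 43.7, and 27.5 CPM in WT mice and at 74.3, 50.6, and 50.7 CPM in Mut mice (log2 fold change 0.65, SE 0.21, adjusted p = 0.411), and its log2 fold change was 0.27 without WT replicate 3 and Mut replicate 1. Mut replicate 1 was the highest mouse for *Dpt* and had the highest summed level of these markers, 768 CPM, but was the lowest mouse for the 5 fibrillar chains. WT replicate 3 had the lowest summed level, 600 CPM, and was the highest or next to highest mouse for the chains. *Dcn*, at 310 to 398 CPM, was the largest part of these sums, and single markers varied in their order, since *Htra3* was lowest in Mut replicate 1, at 72.6 CPM, and *Pdgfra* and *Pi16* were next to highest in WT replicate 3.

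Of 14 activated fibroblast markers tested, 12 were above 0 with a median of 0.53, and 6 had an unadjusted p under 0.05 with a higher level, beside 5.77% of all genes. The 2 below 0, *Ccn2* and *Acta2*, were the highest genes of the list in every mouse. *Ccn2* was at 94.0, 63.9, and 84.9 CPM in WT mice and at 50.5, 76.8, and 55.9 CPM in Mut mice. Its groups overlapped, with a log2 fold change of -0.41 (SE 0.20, adjusted p = 0.599), and that of *Acta2* was -0.13. *Tgfbi*, a matrix protein induced by TGF-β, was at 12.9, 15.2, and 14.6 CPM in WT mice and at 23.1, 20.4, and 26.7 CPM in Mut mice, without overlap, and its log2 fold change was 0.72 (SE 0.17, adjusted p = 0.215). *Tgfbi* was called by DESeq2 (adjusted p = 0.0291) and by edgeR's exact test (adjusted p = 0.0331), which called 136 and 124 of all 17212 genes higher. *Comp*, a cartilage and tendon matrix protein, was at 1.36, 0.89, and 1.84 CPM in WT mice and at 3.12, 2.03, and 6.51 CPM in Mut mice, with a log2 fold change of 1.51 (SE 0.42, adjusted p = 0.307) that was 0.91 without Mut replicate 3, and was called by DESeq2 (adjusted p = 0.0411) but not by edgeR's exact test (adjusted p = 0.0744). Their summed level overlapped between the groups, at between 203 and 237 CPM in WT mice and between 186 and 291 CPM in Mut mice. Of the valve, tendon, or cartilage markers, 8 of 11 were tested and *Hapln1*, *Tnmd*, and *Acan* were at or near 0. Of the 8, 6 were above 0 with a median log2 fold change of 0.42, *Fmod* and *Comp* among them. In the other direction, *Wif1*, a secreted WNT inhibitor, was at 1.48, 2.27, and 1.15 CPM in WT mice and lower in every Mut mouse, at 0.65, 0.73, and 0.46 CPM (log2 fold change -1.42, SE 0.39, adjusted p = 0.304).

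Markers of other cell types were read in the same way. Of 6 macrophage markers, 6 had an unadjusted p under 0.05, were higher, and did not overlap, with a smallest adjusted p of 0.0667, beside 5.77% and 8.3% of all genes higher by these measures, and their summed level was between 154 and 181 CPM in WT mice and between 246 and 355 CPM in Mut mice. Erythroid markers summed to between 346 and 869 CPM in WT mice and between 613 and 1578 CPM in Mut mice. Of these 3 markers, 3 were above 0, beside 51.4% of all genes, with a median log2 fold change of 1.02. At an unadjusted p under 0.05, 2 were higher, beside 5.77% of all genes, and each of the 3 overlapped between the groups. The cardiomyocyte markers, which define the tissue, were abundant in all mice, with sums of between 40479 and 44890 CPM in WT mice and between 31544 and 44810 CPM in Mut mice, the lowest being Mut replicate 1. Endothelial markers summed to between 502 and 662 CPM in WT mice and between 421 and 710 CPM in Mut mice, and smooth muscle and pericyte markers to between 651 and 770 and between 601 and 744 CPM. *Rgs5*, a pericyte gene, made up most of the smooth muscle and pericyte sum. Of the 7 genes of that list, 3 were above 0, with a median log2 fold change of -0.09, and *Acta2*, at -0.13, overlapped between the groups, whereas the smooth muscle genes *Myh11* (log2 fold change -0.71, SE 0.23, adjusted p = 0.438) and *Tagln* (-0.65, SE 0.23, adjusted p = 0.470) were lower in every Mut mouse. These 2 were the genes of the list lower at an unadjusted p under 0.05, beside 2.86% of all genes, and lower without overlap, beside 7.23%. Mesothelial markers summed to between 4.52 and 5.77 CPM in WT mice and between 5.52 and 9.11 CPM in Mut mice, and *Wt1* was the highest of them in every mouse, with a log2 fold change of -0.18. The other mesothelial genes were low and had log2 fold changes of 2.15 for *Upk3b*, without overlap, 1.71 for *Upk1b*, and 1.58 for *Msln*, with adjusted p of 0.251, 0.618, and 0.532. Schwann cell markers summed to at most 5.50 CPM, adipocyte markers to at most 0.25 CPM, and the atrial markers *Myl7*, *Sln*, and *Bmp10* were at or near 0 in all mice. Of the other atrial markers, *Myl4* was at most at 0.57 CPM, and *Nppa*, which a stressed ventricle also makes, was at 37.7, 49.9, and 76.0 CPM in WT mice and at 52.9, 107, and 76.3 CPM in Mut mice (log2 fold change 0.53, SE 0.28, adjusted p = 0.643). *P4ha2*, *P3h2*, *Ccn2*, *Dcn*, *Htra3*, *Pdgfra*, *Pi16*, *Rgs5*, *Acta2*, *Myh11*, *Tagln*, the mesothelial genes, *Myl4*, and *Nppa* were named after their values were seen. The part of these cell types in the collagen and maturation levels was not tested.

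The genes whose pattern over the 6 mice was most like the mean of the 10, among 9766 tested genes at a mean of at least 5 CPM, were *Ndufs3*, *Syk*, *Frmd8*, *Nhsl2*, and *Cdc42ep2*. Their Pearson correlations with that mean were between 0.98 and 0.99 over 6 mice. As the highest of 9766 correlations over so few mice, they are no test of a link. *Ndufs3*, a subunit of mitochondrial complex I, kept within 162 and 180 CPM in all mice, so the likeness is one of pattern and not of size. *Syk*, a tyrosine kinase of blood cells, was at 19.3, 20.1, and 23.9 CPM in WT mice and at 18.2, 22.7, and 23.3 CPM in Mut mice. *Cdc42ep2*, an effector of the GTPase CDC42, was at 8.73, 9.48, and 12.2 CPM in WT mice and at 7.90, 12.7, and 11.4 CPM in Mut mice, with Mut replicate 1 lowest as in the chains. The adjusted p of each of the 5 was at least 0.885.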

How the data were processed

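mRNA-Seq was analyzed in 3 WT and 3 Mut LV samples, each treated as 1 mouse, although the labels do not name the animals. Reads were filtered with Trim Galore, mapped to GRCm39 by HISAT2, and freed of rRNA by the authors, who deposited raw whole-number counts per gene from a StringTie and edgeR pipeline. The annotation release and the strand setting are not given in the sources used here. The authors' table of their own comparison, with fold changes and p-values, was used only to pair gene identifiers with names. The genes and lists were chosen with earlier results of these data known.

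Counts were filtered with filterByExpr, scaled with TMM, and compared with the robust quasi-likelihood test of edgeR 4.0.16 in R 4.3.3, two-sided, with Benjamini-Hochberg adjustment over 17212 genes and a threshold of 0.05. The gene tests of edgeR and DESeq2 were tried on simulated counts with the same spread for every gene. The permutation tests, ratios, length correction, and omission of mice were not. The CPM values are TMM-scaled, and floors cover counting error only. Transcript lengths were taken from the GENCODE annotation of GRCm39. Named genes were the 10, the 2 of each related, fibroblast, or valve list with the smallest unadjusted p, the 5 most like the mean of the 10, and *Lztr1*. DESeq2 1.42.0 and edgeR's exact test served as alternatives, as did other scalings, filters, a length correction, and the omission of mice. Replicate numbers come from the labels, which give no batch.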

Additional observations from a re-analysis of the deposited data

How the results depend on the processing

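None of the 10 collagen and maturation genes was called at an adjusted p under 0.05 in any of 17 alternatives. *Lox*, *Loxl1*, *Loxl2*, *P4ha1*, and *Serpinh1* kept their direction in all 18 alternatives that gave a fold change. In the alternatives run for each, 21 of 34 named genes kept theirs, as did 4 of 9 ratios over 8 alternatives. The count of higher genes, 6, became 15 with library size only, 136 with DESeq2, 124 with the exact test, 19 without a filter, 0 without WT replicate 3 and Mut replicate 1, 15 at a false discovery rate of 0.1, and 993 at an unadjusted p. The count of lower genes, 1, became 6, 14, and 13 under the scaling and tests in the same order, 0 with at least 10 counts in every mouse, and 493 at an unadjusted p. Leaving out each mouse in turn gave 1 to 3 higher and 1 to 2 lower genes.

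With library size only, log2 fold changes turned to -0.14 for *Col5a1*, -0.10 for *Col5a2*, -0.045 for *Col27a1*, -0.14 for *Ndufs3*, -0.15 for *Syk*, -0.0073 for *Frmd8*, -0.10 for *Cdc42ep2*, and -0.014 for *Lztr1*. With upper quartile factors, *Col3a1* was at 0.0086 and *Nhsl2* at 0.035. *Nhsl2* was at 0.0021 with at least 10 counts, 0.081 with the length correction, 0.0041 with mitochondrially encoded genes removed and library size only, and 0.28 without both mice. *Ndufs3* was at -0.0017 without a filter and -0.063 with the length correction, and *Cdc42ep2* was at -0.036 with the latter. Without both mice, *Col1a1* was at 0.48, *Col1a2* at 0.57, *Col3a1* at 0.48, *Col5a2* at 0.55, *Ndufs3* at 0.083, *Syk* at 0.22, *Cdc42ep2* at 0.40, the median of the 10 at 0.50, and the log2 ratios of *Col3a1* to *Col1a1*, *Col5a1* to *Col5a2*, *Lox* to *Col1a1*, *Serpinh1* to *Col1a1*, and *P4ha1* to *Col1a1* at -0.0087, 0.017, -0.025, -0.030, and -0.60. The causes were not tested beyond what each alternative changes.

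Leaving out 1 mouse at a time gave -0.47 to 0.19 for *Col1a1*, -0.26 to 0.31 for *Col1a2*, -0.26 to 0.25 for *Col3a1*, -0.18 to 0.32 for *Col5a1*, -0.11 to 0.36 for *Col5a2*, -0.54 to 0.10 for *Col11a2*, -0.015 to 0.052 for *Ndufs3*, -0.047 to 0.12 for *Syk*, -0.12 to 0.16 for *Nhsl2*, -0.083 to 0.24 for *Cdc42ep2*, -0.27 to 0.039 for *Col5a1* to *Col5a2*, 0.27 to 0.90 for *Lox* to *Col1a1*, 0.13 to 0.73 for *Serpinh1* to *Col1a1*, and -0.43 to 0.0054 for *P4ha1* to *Col1a1*. The replicate numbers did not pair the mice, since deviations of same-numbered mice correlated at -0.0013, 0.022, and -0.057. A replicate block gave 0 higher and 1 lower gene and -0.037 for *Col5a1*. With 3 mice a group, a permutation test cannot give a p below 0.1. The spread between mice limits these results, and whether depth also limits them was not tested.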
